A study of Mus musculus with 2 samples.

Results

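Bidirectional promoters are stretches of DNA from which a pair of protein-coding genes on opposite strands is transcribed in opposite directions. Here a pair was taken where the annotated 5′ ends of the genes in GENCODE M21 lay at most 1 kb apart and pointed away from each other. The members were the accessible regions that overlapped the span between both ends, or the 200 bp on either side of it. Accessible regions were built by merging the overlapping peaks of both replicates, and a region counted only if both replicates had a peak in it. There were 848 such regions among 104208 accessible regions in all, at 717 of 754 pairs. The pairs held 1487 genes, which is 6.78% of the 21938 protein-coding genes. The pairs come from the annotation alone, and no signal, width or footprint value entered the choice of regions beyond the presence of a peak in each replicate.

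The measurements were DNase-seq, in which DNase I cuts DNA where chromatin is open. The samples are labelled as heart tissue of male B6CASTF1/J mice, a first-generation cross between C57BL/6J and CAST/EiJ, at an age of 14 days. There was a single group of 2 biological replicates and no treatment or genotype contrast. Replicate 1 is labelled as 3 males and replicate 2 carries no number, and whether animals were pooled is not stated, so a spread over replicates may set a pool beside a single heart. All positions are on mm10, the genome of C57BL/6J, and the handling of reads from the CAST chromosomes is not given in the sources used here.

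Genes arranged head to head share the nucleosome-free stretch from which RNA polymerase II starts in both directions. Such promoters are known to be rich in CpG dinucleotides, poor in TATA boxes, and frequent among genes for DNA repair, mitochondrial proteins, chaperones and replication-dependent histones. In the heart they include the promoter of the mitochondrial trifunctional protein, which oxidizes long-chain fatty acids. A footprint is a short stretch inside open DNA that is cut less than its surroundings, as happens where a protein covers it.

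The bases between the 5′ ends are shown for 11 pairs, which were chosen to span the signals found: the highest member, pairs of heart and housekeeping genes, and histone and collagen pairs with low signal. They are read on the plus strand of GRCm38.p6, the same assembly as mm10, so the gene named first starts to the left of the sequence and runs leftward. Capitals mark bases inside a footprint of both replicates.
Hjurp/Trpm8: ggggagggacgagagggagggtccgcc
Med22/Rpl7a: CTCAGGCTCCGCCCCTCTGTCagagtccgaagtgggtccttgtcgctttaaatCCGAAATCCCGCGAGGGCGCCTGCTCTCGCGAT
Apaf1/Ikbip: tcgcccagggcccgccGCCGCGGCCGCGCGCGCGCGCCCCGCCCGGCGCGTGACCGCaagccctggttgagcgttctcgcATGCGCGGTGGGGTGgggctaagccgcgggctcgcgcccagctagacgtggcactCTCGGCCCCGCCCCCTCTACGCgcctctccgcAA
Cct5/Fam173b: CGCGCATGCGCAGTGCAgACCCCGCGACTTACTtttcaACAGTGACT
Styxl1/Mdh2: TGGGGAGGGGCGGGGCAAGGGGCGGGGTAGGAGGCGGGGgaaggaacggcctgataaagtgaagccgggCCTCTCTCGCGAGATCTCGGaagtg
Hadha/Hadhb: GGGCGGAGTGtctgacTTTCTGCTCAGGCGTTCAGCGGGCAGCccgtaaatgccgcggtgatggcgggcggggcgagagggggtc
Sdha/Ccdc127: aTTCTGCGCCTGCGCAACACGCccctcc
Cdc27/Myl4: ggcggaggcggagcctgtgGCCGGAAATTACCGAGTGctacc
Hist1h2bf/Hist1h2ad: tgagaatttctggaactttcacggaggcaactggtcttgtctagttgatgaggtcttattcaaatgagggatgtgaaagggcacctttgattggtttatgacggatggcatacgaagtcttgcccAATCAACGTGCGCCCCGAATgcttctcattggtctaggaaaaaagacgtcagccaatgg
Hist2h2ac/Hist2h2be: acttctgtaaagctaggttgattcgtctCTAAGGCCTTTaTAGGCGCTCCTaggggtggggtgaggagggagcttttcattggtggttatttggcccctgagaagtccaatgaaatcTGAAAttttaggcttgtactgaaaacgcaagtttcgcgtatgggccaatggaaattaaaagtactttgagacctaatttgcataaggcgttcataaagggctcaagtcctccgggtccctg
Col4a4/Col4a3: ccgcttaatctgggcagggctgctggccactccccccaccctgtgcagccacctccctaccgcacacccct

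None of these spans overlapped an annotated exon. The housekeeping and heart spans were covered densely: footprints of both replicates held 54 of the 86 bases at Med22/Rpl7a (chr2:26910678-26910763), 59 of 94 at Styxl1/Mdh2 (chr5:135778386-135778479), 41 of 47 at Cct5/Fam173b (chr15:31601805-31601851) and 21 of 28 at Sdha/Ccdc127 (chr13:74350281-74350308). Hadha/Hadhb (chr5:30155163-30155247) had 37 of 85, Cdc27/Myl4 (chr11:104550621-104550662) 18 of 42 and Apaf1/Ikbip (chr10:91082771-91082939) 80 of 169. The histone spans were sparsely covered, with 20 of 184 bases at Hist1h2bf/Hist1h2ad (chr13:23574197-23574380) and 27 of 238 at Hist2h2ac/Hist2h2be (chr3:96220881-96221118). No base was covered at Col4a4/Col4a3 (chr1:82586850-82586920) or, although its region had the highest signal of all members, at Hjurp/Trpm8 (chr1:88277634-88277660), where the 3 footprints of the region in each replicate lay outside the 27 bases between the ends.

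Of the peak sets of each replicate the larger was used, with 143122 peaks for replicate 1 and 125118 for replicate 2. Depth is unknown, since no read totals come with the lists. All 8 cardiomyocyte markers, 3 of 3 endothelial and 3 of 3 fibroblast markers had an accessible region within 1 kb of their 5′ end. Of markers for other tissues, none of 2 each for erythroid cells, hepatocytes, lung epithelium and neurons did, while 1 of 2 for leukocytes (Cd68) and 1 of 2 for skeletal muscle (Myod1) did. Among members, log2 signals of the replicates correlated across regions with a Pearson r of 0.98, which describes regions of shared libraries and carries no test. Replicate 1 was higher in 86.9% of members, by a median of 0.30 on the log2 scale, beside 0.31 over all accessible regions.

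Nearly every pair was open. Of 754 pairs, 717 (95.1%, exact 95% interval 93.3 to 96.5%) had a region with a peak in each replicate, whereas this held for 55.8% of the 20451 protein-coding 5′ ends outside such pairs, called single ends here. These single ends include genes of head-to-head pairs whose annotated 5′ ends overlap, which do not meet the rule. The units differ: a pair was open if a region overlapped its span or 200 bp on either side, so either end sufficed. A single end had only 200 bp on either side. With no flank on the spans, 92.8% of pairs were open. The part of window length in the gap was not tested. Replicate 1 had a peak at 717 pairs and replicate 2 at 720. CpG content went with this difference. A CpG ratio, the observed over the expected number of CpG dinucleotides in 500 bp, of at least 0.6, as in CpG islands, was found at 649 pairs (86.1%) and at 46.1% of single ends. With that ratio, 641 of 649 pairs (98.8%) and 92.3% of single ends were open. Below it, 76 of 105 pairs (72.4%, interval 62.8 to 80.7%) and 24.5% of single ends were open. Single ends with an annotated non-coding 5′ end pointing away on the other strand within 1 kb lay between the groups, with 640 of 772 open (82.9%, interval 80.1 to 85.5%).

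The 37 pairs without a common region were poor in CpG. Their median ratio was 0.30, and 8 of them (21.6%) reached 0.6, beside a median of 0.84 and 89.4% for the open pairs. There was no peak in either replicate at 34 of them, and the other 3 had a peak in replicate 2 only. The closest of the closed pairs with full gene names were Best1/Rab3il1 (36 bp apart), Rnf151/Rps2 (53 bp), Dgcr2/Tssk2 (75 bp), Il11/Tmem190 (78 bp) and Patl2/Terb2 (83 bp). An annotated 5′ end need not be the start in use: at Rnf151/Rps2, where Rps2 encodes a protein of the small ribosomal subunit, the nearest accessible region lay 1765 bp away. Likewise Pecam1/Milr1, chosen after its values were seen, was closed at the span although the endothelial gene Pecam1 counted as open above, and the nearest region was 924 bp off. Of the 20 pairs on the X chromosome, 15 were open.

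Signals of bidirectional promoters were higher than those of other promoters, and few members were weak. The signal of a region is the highest value the authors gave to a peak in it, which is taken to be adjusted for read depth. The median over the 848 members was 10.7 in replicate 1 and 8.52 in replicate 2 (9.61 ± 1.55, SD, n = 2), and over the 11923 regions at single ends it was 5.76 and 5.01 (5.39 ± 0.527). The lower of the member medians was above the higher median of other promoters, and the log2 ratio was 0.90 in replicate 1 and 0.76 in replicate 2 (0.83 ± 0.09). With 1 group of 2 samples the design allows no test between classes, and regions are not replicates, so these are descriptions. Values under 2 were found for 6.96% and 7.43% of members, beside 25.9% and 27.2% of other regions. At the upper end the classes came close: the 90th percentile was 19.5 and 15.4 for members and 16.5 and 13.4 for other promoters.

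The gap was smaller beside promoters of like composition. The 9219 other regions with a CpG ratio of at least 0.6 had medians of 7.60 and 6.51, which left a log2 ratio of 0.44 ± 0.08. The 686 other regions with a non-coding 5′ end on the opposite strand had medians of 9.37 and 7.93, and the log2 ratio of bidirectional promoters to them was 0.19 in replicate 1 and 0.10 in replicate 2 (0.15 ± 0.06). Their 90th percentile, 19.2 and 15.4, was close to that of the members, and the share under 2 was 13.4% and 13.6%. The median CpG ratio was 0.83 for the members, 0.83 for the island-like others, 0.84 for those with a non-coding 5′ end and 0.78 for all others. The part of CpG content in these differences was not tested.

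**Figure D1:**
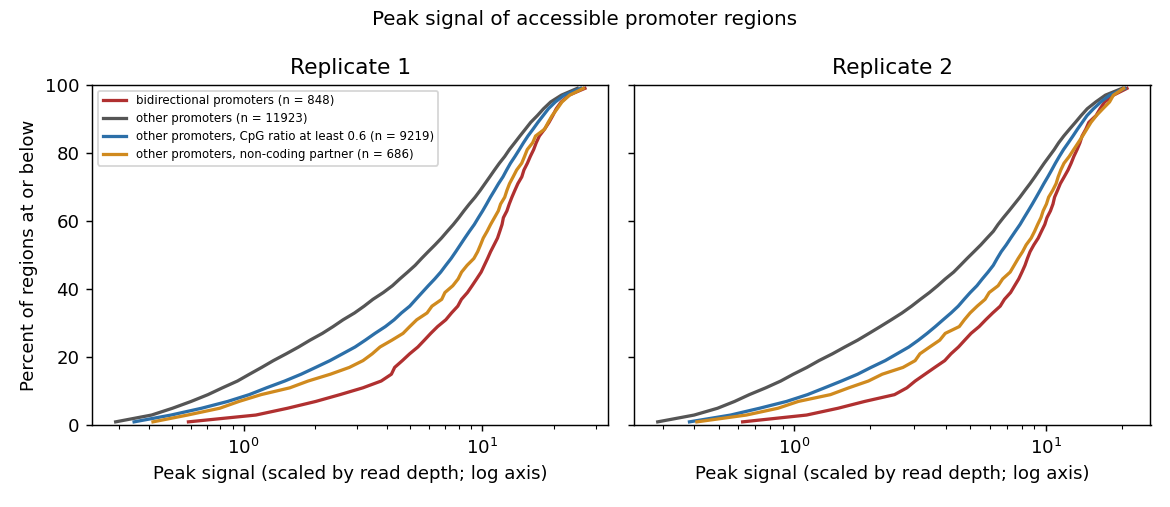
Percent of accessible promoter regions at or below a given peak signal (log axis) in replicate 1 and replicate 2, for bidirectional promoters, all other promoters, other promoters with a CpG ratio of at least 0.6 and other promoters with a non-coding 5′ end on the opposite strand. The curve of bidirectional promoters lies to the right at low and middle signals (median 10.7 against 5.76 in replicate 1), and the curves meet near the top.

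Within bins of CpG ratio the members were higher in both replicates in all 4 bins. At a ratio up to 0.3 there were only 8 members, with medians of 1.41 and 1.17 beside 1.12 and 0.88 for 746 others. From 0.3 to 0.6, 66 members had medians of 4.67 and 3.39 and 1958 others had 1.99 and 1.63. From 0.6 to 0.9, where most members fell (503), the medians were 10.7 and 8.38 beside 7.0 and 5.85 for 6291 others. Above 0.9, 271 members had 12.1 and 9.99 and 2928 others had 8.87 and 8.11. Signals were thus higher at higher CpG ratios in both classes, and the difference between classes was widest, in relative terms, from 0.3 to 0.6. Beside the others with a non-coding 5′ end, members were higher in 2 of the 4 bins. Beside all other promoters but without replicate 1, they were higher in 3 of 4.

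Widths were alike at the median, but wide regions were rarer among members. Median peak width per region was 200 bp in replicate 1 and 220 bp in replicate 2 for members and for other promoters alike. Merged regions had a median of 220 bp (quartiles 200 and 280) for members and 240 bp for others. The 90th percentile of peak width was 320 and 340 bp for members and 360 and 400 bp for others. Among the well-filled width classes, signals differed most in wide regions. The 57 members wider than 400 bp had medians of 9.09 and 7.78, whereas 1435 other regions of that width had 1.60 and 1.70. Up to 150 bp the gap was wider still, 11.8 and 8.43 against 0.63 and 0.65, but with only 5 members beside 84 others. In the narrowest well-filled class, 151 to 200 bp, the medians were 10.6 and 8.79 for 297 members and 7.53 and 6.28 for 4048 others.

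The widest member was at Rgs9bp/Ankrd27, 1178 bp long with a low signal of 1.12 and 1.14 and hardly any footprint (0 and 1). The next widest had several footprints each. Tada3/Arpc4, which pairs a subunit of histone acetyltransferase complexes with a subunit of the actin-nucleating Arp2/3 complex, had 760 bp with 9.09 and 7.78. Tshz1/Zadh2 had 800 bp with 7.38 and 7.78, and B3galt6/Sdf4 700 bp with 12.2 and 8.43, while Cd3eap/Ppp1r13l, 740 bp long, had 2.44 and 2.06.

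Footprints were slightly more frequent at bidirectional promoters. A member overlapped 4.96 footprints on average in replicate 1 and 5.15 in replicate 2, and another promoter 4.34 and 4.57. Per 100 bp of peak there were 1.99 and 2.03 footprints in members and 1.67 and 1.71 in others, a log2 ratio of 0.25 in each replicate. Beside other promoters with CpG ratios of islands, at 1.77 and 1.82, the log2 ratio was 0.16 ± 0.008. Beside those with a non-coding partner the number per region was level, 4.94 and 5.19 against 4.96 and 5.15, so the direction of this count rests on which promoters serve for comparison. Per 100 bp it was still higher in members in both replicates (log2 ratio 0.12 ± 0.001).

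Footprints in members also recurred more often between replicates. A footprint counted as recurring if footprints of the other replicate covered 50% or more of it, which held for 77.4% of 4206 in replicate 1 and 76.4% of 4365 in replicate 2. In other promoters these shares were 68.4% and 67.1%, and with CpG ratios of islands 71.2% and 69.3%. Median footprint length was 15 and 14 bases in members and 13 and 12 in others. The mean number per member was lower in weak regions, with 3.54 and 4.01 in the weakest 25% of members, 5.25 and 5.34 in the next 25% and 5.61 and 5.63 in the strongest. Stronger peaks also have more cuts from which a footprint can be called, and the part of this in the counts was not tested. The most footprints were counted at B3galt6/Sdf4 (16 and 20), Nlgn2/Tmem256 (14 and 16), Ap3m1/Adk (13 and 15), 1110059E24Rik/Abhd17b (11 and 15) and Tada3/Arpc4 (13 and 13).

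Called peaks lay mostly upstream of both genes and reached less far into them than at single ends. Peaks covered the ends of open pairs most often 50 bp upstream of the 5′ end, where 86.5% and 84.7% of ends lay in a peak. For single ends the maximum was 20 bp upstream, at 79.6% and 80.1%. At 100 bp downstream, 20.9% and 23.8% of the ends of pairs were still inside a peak, against 34.6% and 40.9% of single ends, 33.4% and 39.7% of those with CpG ratios of islands, and 26.9% and 33.3% of those with a non-coding partner. Where a region covered the end, it reached a median of 73 bp into the gene and 155 bp upstream for pairs, and 92 bp and 134 bp for single ends. Upstream of a paired end the other gene begins, so the upstream values partly count the partner. The authors' per-base list of cleavage did not show the shorter reach. At 100 bp downstream, 94.4% and 94.98% of paired ends were listed with a false discovery rate under 0.001, beside 86.4% and 87.7% of single ends and 93.04% and 94.9% of those with CpG ratios of islands. At 300 bp the shares were 67.5% and 72.3% for paired ends and 66.7% and 72.4% for single ends.

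Footprints peaked at the same place, 20 bp upstream of the 5′ end, in both classes, which held 40.7% and 39.3% of paired ends and 29.8% and 28.9% of single ends. The share there was 33.3% and 32.4% for single ends with CpG ratios of islands. For those with a non-coding partner it was 38.9% and 37.8%, close to the paired ends. Measured within peaks, 37.8% and 36.4% of bases between the ends of pairs lay in footprints, and 30.9% and 29.4% of bases in the first 100 downstream of the ends. At single ends the corresponding values were 32.7% and 32.0% for the 100 bases upstream and 24.6% and 23.6% for the 100 downstream. With CpG ratios of islands they were 34.9% and 34.3% upstream and 26.9% and 25.7% downstream. With a non-coding partner they were 36.4% and 35.4% upstream and 28.0% and 26.5% downstream. In both classes the upstream side was the denser. In the authors' per-base list, bases whose false discovery rate for cleavage was under 0.001 made up 88.9% of the bases between the ends of open pairs in either replicate, although peaks covered only 64.6% and 63.6% of them.

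**Figure D2:**
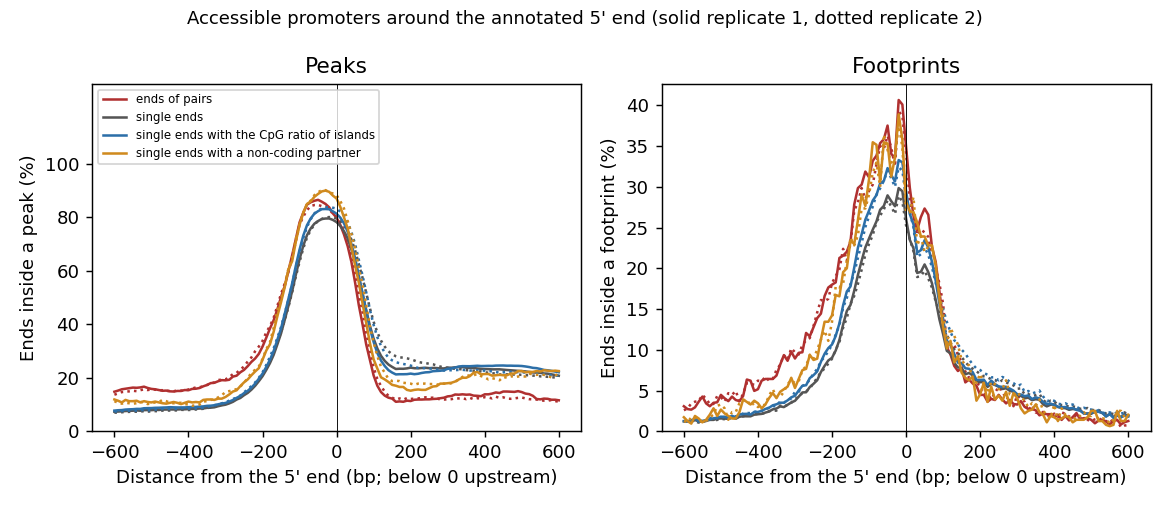
Share of open annotated 5′ ends (in percent) that lie inside a peak (left) or a footprint (right) at each distance from the end, in base pairs with values below 0 upstream, for ends of pairs and 3 groups of single ends; solid lines are replicate 1 and dotted lines replicate 2. Ends of pairs fall to 20.9% inside peaks at 100 bp downstream in replicate 1, below all groups of single ends, and carry the highest footprint share 20 bp upstream.

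Most pairs shared 1 region. The distance between the ends had a median of 129.5 bp (quartiles 67 and 240), and 618 pairs (82.0%) were at most 300 bp apart. One region served 574 pairs, 135 had 2 and 8 had 3. At most 100 bp apart, 23 of 303 open pairs (7.59%, interval 4.87 to 11.2%) had 2 or more regions. The share was 15.03% over 100 and up to 200 bp, 25.5% up to 300 bp, 43.1% up to 500 bp and 62.9% (interval 49.7 to 74.8%) beyond 500 bp. Longer spans also cover more DNA, and the part of this in the shares was not tested. With several regions the strongest had a median of 2.17 times the signal of the next. Of the regions, 20 were shared by more than 1 pair. They were counted once among the 848 members and once per pair where pairs or gene lists are counted.

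The strongest region of a pair covered both 5′ ends at 439 of 717 pairs (61.2%), 1 end at 230 and no end at 48. It covered both ends at 90.1% of pairs up to 100 bp apart, 65.8% of those up to 200 bp, 35.1% up to 300 bp and 7.69% up to 500 bp, each class beginning where the one before ends. The middle of its strongest peak lay between the ends at 66.9% of pairs in replicate 1 and 65.1% in replicate 2, and the gene on the plus strand was the nearer at 49.7%, close to an even split. The signal of the strongest region was somewhat higher at middle distances. Pairs farther apart more often had several regions from which the strongest was taken, and the part of this was not tested. Its median was 11.2 and 9.32 up to 100 bp, 12.2 and 9.90 up to 200 bp, 12.6 and 10.2 up to 300 bp, 13.7 and 10.7 up to 500 bp and 11.5 and 8.65 beyond. Near the limit of 1 kb, Asphd1/Sez6l2 (981 bp) had 10.96 and 8.31 and Btf3l4/Txndc12 (987 bp) 7.39 and 7.02. Just outside it, Gpr108/Trip10 (1009 bp) had 21.8 and 15.5 and Serpina7/4930513O06Rik (1007 bp) no region.

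**Figure D3:**
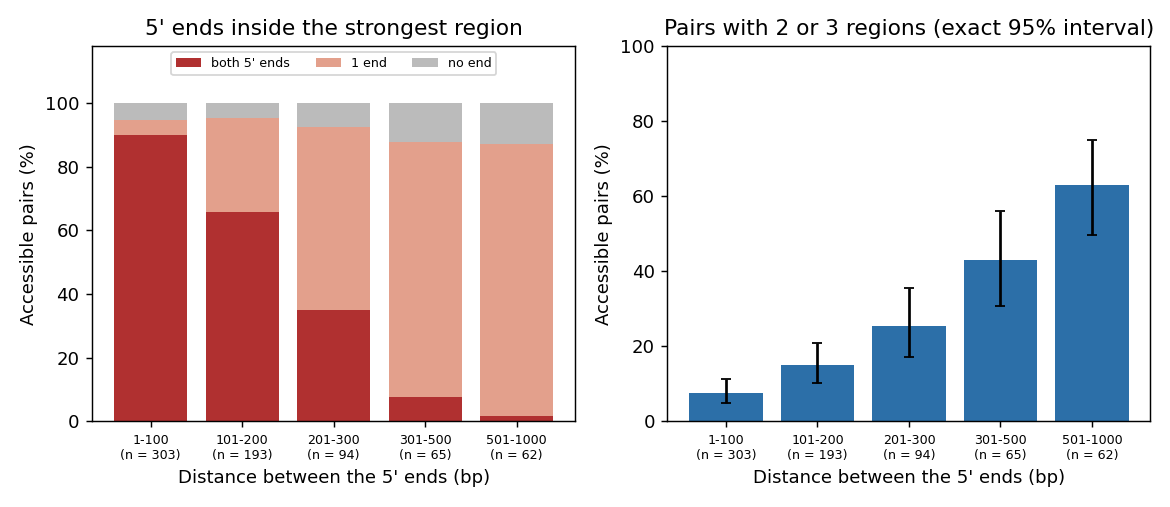
Left, percent of open pairs whose strongest region covers both, 1 or no annotated 5′ end, by distance between the ends in base pairs; right, percent of open pairs with 2 or 3 regions, with exact 95% intervals as bars. Coverage of both ends falls from 90.1% to 1.61% with distance, while the share with several regions rises from 7.59% to 62.9%.

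Motifs were searched as exact letters on both strands in 300 bp centred on the strongest peak of each region in replicate 1. Motif matches may overlap one another and each was counted. Of 17 motifs, 5 had shares whose exact 95% intervals did not overlap between members and other promoters. The ETS core CCGGAAG, bound by factors such as GABPA, was found in 229 members (27.0%, interval 24.0 to 30.1%) and 16.7% of others. The CCAAT box of NF-Y, searched as CCAATNA, was found in 203 (23.9%, 21.1 to 27.0%) and 15.4%. The YY1 motif AAGATGGCG was found in 55 (6.49%, 4.92 to 8.36%) and 3.10%, and the ZNF143 motif ACTACAA in 51 (6.01%, 4.51 to 7.83%) and 3.41%. The muscle motif of MEF2 factors, TAAAAATA, was in none of the members, which allows up to 0.43%, and in 0.76% of other promoters. Beside other promoters with CpG ratios of islands the shares were 19.5% for ETS, 15.4% for NF-Y, 3.86% for YY1, 3.58% for ZNF143 and 0.53% for MEF2. Beside the 686 others with a non-coding 5′ end, ETS at 21.1% and NF-Y at 19.97% were closer to the members, while YY1 stood at 2.33%, ZNF143 at 2.19% and MEF2 at 0.87%. Beside the island-like others, 5 of the 17 motifs again had intervals that did not overlap. ETS, NF-Y, YY1 and ZNF143 stayed among them, while the GC box took the place of MEF2. No intervals were computed beside those with a non-coding 5′ end.

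The GC box GGGCGGG of SP and KLF factors was the most frequent motif, at 51.9% of members and 51.3% of all others, with overlapping intervals. Among island-like others it was more frequent, at 57.7%, above the members' interval of 48.5 to 55.3%. The TATA box TATAAA stood at 3.89% and 4.24%. The intervals also overlapped for NRF1 (GCGCATGC, 6.60% and 5.14%), the E-box of USF (TCACGTG, 6.72% and 5.64%), the cAMP response element (TGACGTCA, 4.25% and 3.40%), the element CTCGCGAG (3.07% and 1.82%), E2F (TTTNGCGC, 3.30% and 2.44%) and RFX (GTTGCCATG, 1.06% and 0.66%). They overlapped likewise for AP-1 (TGANTCA, 2.83% and 3.68%), TEAD (ACATTCC, 2.24% and 2.05%), the factors of the GATA family (AGATAAG, 0.47% and 1.05%) and the estrogen-related receptors (TCAAGGTCA, 0.12% and 0.19%). At least 3 of 9 broadly acting motifs were present in 9.55% of members, 5.60% of other promoters and 6.80% of island-like ones.

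**Figure D4:**
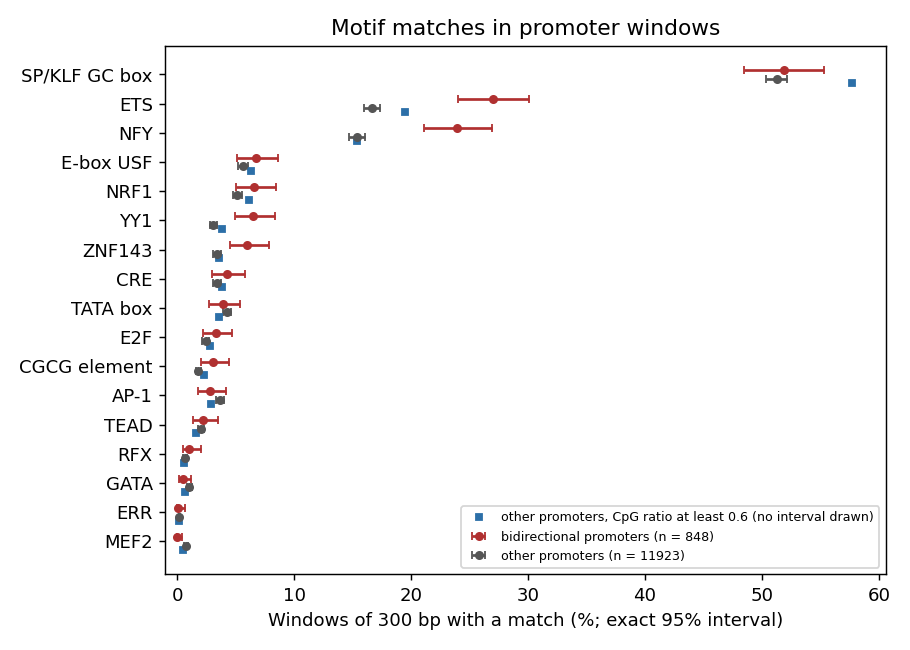
Percent of 300 bp windows with at least 1 match to each of 17 motifs, for 848 bidirectional promoters and 11923 other promoters, with exact 95% intervals as bars, and for other promoters with a CpG ratio of at least 0.6 as squares. ETS (27.0% against 16.7%), NF-Y, YY1 and ZNF143 lie higher in bidirectional promoters with intervals that do not overlap.

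Motifs took different places along the span. Of the bases in windows at the strongest region of each open pair, 38.8% lay between the 5′ ends. CCAAT boxes fell there in 186 of 236 cases (78.8%) and GC boxes in 408 of 657 (62.1%), whereas YY1 matches did so in 3 of 52 (5.77%) and otherwise lay beyond the ends, on the side of a gene body. ETS matches were near the share of bases, with 114 of 263 (43.3%). Among motifs with more than 20 matches, they lay in footprints most often for the cAMP response element (97.4% and 92.1% of 38 matches), NRF1 (93.5% and 92.5% of 93) and CTCGCGAG (89.7% and 86.2% of 29). It was 75% and 74.7% for GC boxes, 59.2% and 58.5% for ETS and 47.2% and 49.4% for CCAAT boxes. Footprints covered 29.4% and 28.4% of window bases, though a match counted when any of its bases was covered.

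The printed spans show these motifs. Counted from 1 at the left end, Styxl1/Mdh2 has GC boxes at bases 8 to 14 and 20 to 26 and CTCGCGAG at 75 to 82, all inside footprints of both replicates. Cct5/Fam173b has NRF1 matches at 2 to 9 and 4 to 11, on opposite strands, again inside. Apaf1/Ikbip has GC boxes at 38 to 44 and 142 to 148 inside, and an NRF1 match at 79 to 86 inside in part. The GC box of Hadha/Hadhb at 66 to 72, however, was touched by no footprint in either replicate. Hist1h2bf/Hist1h2ad has matches to CCAATNA at 88 to 94, 124 to 130 and 151 to 157, and only that at 124 to 130 was touched by a footprint in both replicates. Hist2h2ac/Hist2h2be has matches to CCAATNA at 77 to 83 and 107 to 113 and a TATA box on the minus strand at 37 to 42, which both replicates covered in part. Both histone spans also hold the letters CCAATGG, which the searched pattern does not match. No motif of the list lies in the spans of Hjurp/Trpm8, Sdha/Ccdc127, Cdc27/Myl4, Med22/Rpl7a or Col4a4/Col4a3 as these letters.

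Members with a match to a broadly acting motif mostly had higher median signals than those without. With NRF1 the median signal was 13.3 and 12.3 (56 members), and without it 10.5 and 8.38. With a CCAAT box it was 12.4 and 9.50, without it 10.2 and 8.41. The cAMP response element, at 14.1 and 11.3 over 36 members against 10.6 and 8.44, the E-box, at 12.8 and 10.7 over 57, and the GC box, at 11.9 and 9.69 over 440 against 9.40 and 7.61, gave the same order. With an ETS match the medians were close to those without, 10.9 and 8.73 against 10.6 and 8.43. With a TATA box the median was lower, 5.74 and 4.24 for 33 members, beside 10.8 and 8.64 without. Such matches were in 1.42% of the strongest 25% of members and 8.02% of the weakest 25%. Other promoters showed the same order for each of these motifs, so it was not particular to members. The sizes differed: for ETS, close in members, other promoters had 8.84 and 7.14 with a match and 5.02 and 4.46 without. With NRF1 their medians were 11.7 and 9.92, without it 5.47 and 4.77. With a TATA box they were 4.36 and 3.57, without it 5.81 and 5.06.

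The strongest member was at Hjurp/Trpm8, with 56.1 in replicate 1 and 39.8 in replicate 2 and 240 bp wide. Hjurp loads the histone variant of centromeres and Trpm8 is a cold-sensing ion channel. Fbh1/Ankrd16, with a DNA helicase gene, followed at 37.7 and 25.1. Med22/Rpl7a, which joins a Mediator subunit to a ribosomal protein, had 32.4 and 26.2. Pdhx/Apip, of which Pdhx encodes a component of the pyruvate dehydrogenase complex, had 31.9 and 20.2. Apaf1/Ikbip, with the scaffold gene of the apoptosome, had 27.3 and 24.6, and Dnajb4/Fubp1, with a co-chaperone gene, 30.1 and 20.8. Fam53a/Gm9903, Dcaf6/Mpc2 (Mpc2 is a subunit of the mitochondrial pyruvate carrier) and Gtf3c1/D430042O09Rik lay between 26.4 and 28.2 in replicate 1 and between 20.7 and 22.1 in replicate 2. Replicate 1 was higher at each pair named here.

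The weakest regions belonged to Ptchd1/Gm15155 (0.262 and 0.263), Ifit1bl2/Ifit1 (0.390 and 0.239), Sirt1/Dnajc12 (0.326 and 0.334), Duox2/Duoxa2 (0.447 and 0.364) and Sox6/1110004F10Rik (0.433 and 0.436). Ifit1 is an interferon-induced gene and Duox2 with its maturation factor Duoxa2 is known from the thyroid. The replicates parted most from the general ratio at Ddx25/Pus3 (0.496 and 0.788), Atg12/Ap3s1 (1.59 and 2.31), Hnrnpa2b1/Cbx3 (4.99 and 7.21), Zfp942/Zfp943 (1.32 and 1.90) and Lrrc75a/Mmgt2 (1.26 and 1.81), and in each of these replicate 2 was the higher, against the usual order.

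Pairs with heart genes mostly had strong regions. Of 67 genes for heart muscle and fuel use, 7 (10.4%, beside 6.78% of all protein-coding genes) were in 6 pairs, all open, with a median signal of 18.0 beside 10.7 for all open pairs, and 5 of the 6 above it. Myl12b/Myom1, with the M-band protein myomesin, had 22.2 and 19.6. Styxl1/Mdh2, with mitochondrial malate dehydrogenase of the citric acid cycle, had 24.0 and 17.1. Cdc27/Myl4, with the atrial myosin light chain, had 20.2 and 17.4. Hadha/Hadhb, the subunits of the trifunctional protein, had 11.9 and 10.3, near the median of all pairs. Klc3/Ckm, with muscle creatine kinase, had 0.766 and 1.01 for its 1 region, which lay over the 5′ end of Klc3 and not that of Ckm.

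Energy and protein synthesis genes were close to the general level. Of 109 mitochondrial respiration genes, 24 (22.0%) were in pairs, against 6.78% of all protein-coding genes, with 23 of 24 pairs open and a median of 11.4. Ndufa8/Morn5 had 20.5 and 16.4, Wdr4/Ndufv3 19.4 and 15.6 and Rps28/Ndufa7 19.7 and 13.03, each with a subunit of respiratory complex I. Sdha/Ccdc127, with the catalytic subunit of succinate dehydrogenase, had 15.01 and 14.7. Of the genes of the mitochondrial ribosome and translation, 21 (20.8%) were in 20 pairs, all open, with a median of 10.97, led by Mrpl49/Fau (20.1 and 16.8), Mrps18b/Ppp1r10 (18.3 and 13.6) and Mrpl32/Psma2 (16.2 and 14.6). Mrps12/Sars2 had 11.4 and 9.94 with 2 regions. Cytosolic ribosome and translation factor genes entered pairs less often than these mitochondrial lists, 14 of 134 (10.4%, beside 6.78% of all protein-coding genes). Of their 14 pairs, 13 were open, with a median of 11.6. Rpl9/Lias, which joins a ribosomal protein to lipoyl synthase, had 21.9 and 16.3.

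DNA repair and replication genes made up the largest group. Of 127, 37 (29.1%, beside 6.78% of all protein-coding genes) were in 39 pairs. Of these, 38 were open with a median of 11.8, and 23 exceeded the median of all pairs. Some of these pairs share a region, so the 38 rest on 35 regions. Atm/Npat, the DNA damage kinase beside the activator of histone transcription, had 23.2 and 20.1. Abhd12/Gins1, with a subunit of the replicative helicase, had 19.9 and 16.4. Mcm4/Prkdc had 15.7 and 11.8 with 2 regions. Brca1/Nbr1 had 8.59 and 6.16. Rad51c/Tex14 was the weakest of the list, with 0.454 and 0.651. Outside the lists, Gart/Son, which joins a purine synthesis enzyme to a splicing co-factor, had 12.1 and 10.9 with 2 regions.

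Among chaperones, 12 of 75 genes (16%, beside 6.78% of all protein-coding genes) were in 11 pairs. All 11 were open, with a median of 12.4 and values from Sirt1/Dnajc12 up to Dnajb4/Fubp1. Tecr/Dnajb1 had 22.7 and 18.9, and Cct5/Fam173b, with a subunit of the cytosolic chaperonin, 21.9 and 17.1. Of RNA polymerase and splicing genes, 18 of 75 (24%) were in 18 open pairs with a median of 11.8. Among them were Lsm7/Sppl2b (19.3 and 17.8) and Polr3c/Rnf115 (16.9 and 16.1). Mediator and general transcription factor genes had a median of 10.1 over 15 open pairs, with Serac1/Gtf2h5 at 17.95 and 13.8. Proteasome genes had 8.77 over 8, with Ftsj3/Psmc5 at 18.3 and 13.2 and Psmb1/Tbp at 12.98 and 10.2.

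Histone pairs stood at the low end. Most of these genes encode histones that are made in S phase. Of 78 histone genes, 27 (34.6%, beside 6.78% of all protein-coding genes) were in 14 pairs. In 13 of the 14 pairs a histone gene was joined to another histone gene. Of the 14, 11 were open, with a median of 2.77 and a range from 1.11 to 4.98 in replicate 1 and from 0.979 to 3.53 in replicate 2, and none reached the median of all pairs. Their CpG ratios (median 0.86, all 11 at 0.6 or above) were like those of all open pairs. The strongest were Hist1h2bf/Hist1h2ad (4.98 and 2.91), Hist2h2ac/Hist2h2be (4.30 and 3.53) and Hist1h2an/Hist1h2bp (4.47 and 2.90). No peak was found at Hist1h2bq/Hist1h2ao, Hist1h2ap/Hist1h2br or Hist1h2ba/Hist1h2aa. In the windows of the 11, CCAAT boxes were present in 9 and TATA boxes in 5, beside 23.9% and 3.89% of all members. No ETS match was found in them, beside 27.0% of all members. Histone genes are near-identical copies: the treatment of reads that match several copies is not given in the sources used here, and its part in these values was not tested.

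The only pair of basement membrane collagens that met the rule, Col4a4/Col4a3, had 2.17 and 2.09 with 4 footprints in each replicate. In replicate 1 the middle of its strongest peak lay on the side of Col4a3. This collagen pair is known from the glomerulus of the kidney.

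**Figure D5:**
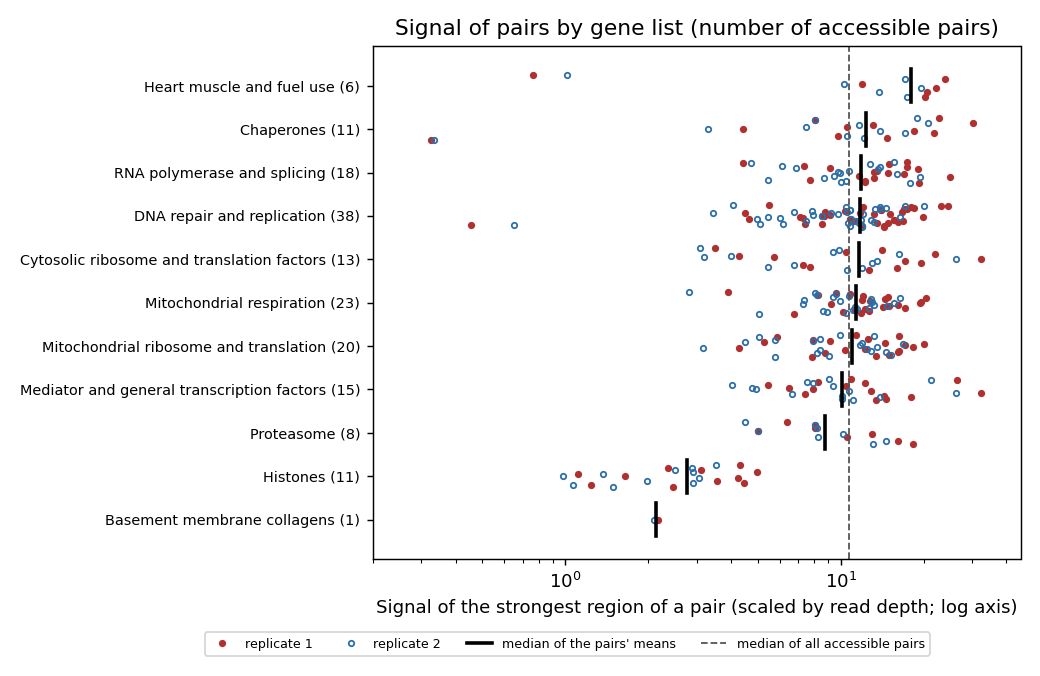
Signal of the strongest region of each open pair (log axis) by gene list, filled points for replicate 1, open circles for replicate 2, a black bar for the median of the pairs' means and a dashed line at the median of all open pairs, 10.7. All 11 histone pairs lie left of the dashed line, and 5 of 6 heart pairs lie right of it by the mean of their replicates.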

How the data were processed

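Per the labels, positions are on mm10. Per the notes that the authors deposited with each sample, peaks, footprints and the list of cleaved bases were made separately for each replicate from its filtered alignment, with no pooling. The sources used here do not give callers or thresholds. The notes name a track normalized by read depth, and the peak signal deposited by the authors is taken to be on that scale, whose exact form is not stated. The deposited p-value column is a false discovery rate of cleavage, listed only under 0.05. In the footprint lists the authors gave 0.01 in every row as an other value, which was not used.

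The larger of 2 peak sets per replicate was taken, and overlapping peaks of both were merged. A region's signal is its highest peak, its width per replicate the union of its peaks, and its footprints those that overlap it. Other promoters were regions within 200 bp of a protein-coding 5′ end outside the pairs. Means and SDs are over 2 replicates, whose spread may be technical in part. Intervals are exact 95% binomial and cover counting only. The members and gene lists were chosen with earlier results of these data known. Named pairs were well-known pairs that met the rule, the 10 strongest, the 5 weakest, widest, richest in footprints and farthest from the common replicate ratio, the 5 closest closed pairs, and the 3 strongest of each list; a few pairs that this rule names are not reported here. Pair finding, overlap counts and motif searches were tested on simulated data and recovered 100% of planted cases. Python 3.11.15, pandas 2.3.3, numpy 2.4.6, scipy 1.17.1, pysam 0.24.0, samtools 1.23.1 and matplotlib 3.10.9 were used. Alternatives changed the flank, distance, peak set, gene set, starts, other promoters, footprint counting, motif window and replicates.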

Additional observations from a re-analysis of the deposited data

How the results depend on the processing

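Signals stayed higher in bidirectional than in other promoters in all alternatives run, but the size depended on the comparison. The log2 ratio of medians, 0.83 as reported, was 0.62 with a 500 bp flank, 0.69 with the smaller peak sets, 1.11 with any start of a protein-coding transcript and 1.23 with 500 bp around single ends. It was 0.44 beside island-like others and 0.15 beside those with a non-coding 5′ end. From 1 replicate alone it was 0.82 to 0.97. The width ratio, -0.13, was 0 with the 500 bp flank, the smaller sets, the strongest region of each promoter (chosen after seeing the data) and either replicate alone.

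The log2 ratio of footprints per region, 0.18, reversed to -0.0034 beside others with a non-coding 5′ end, and the ratio per 100 bp, 0.25, was then 0.12. In that order the pair of ratios was 0.23 and 0.31 with no flank (0 bp), 0.0068 and 0.054 with the 500 bp flank, 0.20 and 0.28 for ends up to 500 bp apart, 0.20 and 0.28 up to 300 bp, 0.14 and 0.17 with the smaller sets, 0.24 and 0.32 with any start, 0.34 and 0.43 with 500 bp around single ends, 0.071 and 0.16 beside island-like others, 0.16 and 0.22 for footprints by their middle base and 0.23 and 0.29 for the strongest region. Per 100 bp it was 0.24 without provisional gene names. From 1 replicate alone they were 0.18 to 0.22 and 0.24 to 0.25. The cause of these changes was not tested.

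Open pairs fell to 92.8% with no flank. The share of strongest peaks between the ends, 66.0%, was 68.8% with no flank, 64.3% with 500 bp, 64.2% up to 300 bp apart and 63.2% with any start. Members were higher in 2 of 4 CpG bins beside others with a non-coding 5′ end, and in 3 of 4 beside all other promoters without replicate 1. The island-like comparison was not run in these bins, since it empties the lower ones. Of 17 motifs, 4 instead of 5 had intervals apart in 200 bp windows, and 5 beside island-like others, with the GC box in place of MEF2. No paired analysis was possible because there is a single group. With 2 replicates and unknown depth, small ratios cannot be told from differences between libraries.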

Other observations

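Many well-known head-to-head pairs did not meet the rule because their annotated 5′ ends overlap. There were 445 pairs of protein-coding genes whose ends overlap by up to 1 kb, of which 429 (96.4%, exact 95% interval 94.2 to 97.9%) had an accessible region. The median signal of their 584 regions was 7.79 in replicate 1 and 6.48 in replicate 2, between the values of bidirectional and other promoters. Among them, Hspd1/Hspe1, the genes of the mitochondrial chaperonin and its co-chaperonin, overlap by 111 bp and had 18.0 and 13.5. Ppat/Paics, which encode enzymes of purine synthesis, had 17.7 and 12.4, and Tap1/Psmb9, with genes of antigen processing, 16.0 and 12.8. Col4a1/Col4a2, the major basement membrane collagen pair, overlap by 21 bp and had 6.94 and 6.75, above the 2.17 and 2.09 of Col4a4/Col4a3. Surf1/Surf2 had 2.87 and 2.11.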
